A study of Mus musculus with 15 samples.

Results

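Lineage-negative (Lin-) bone marrow (BM) cells labelled G3 mTerc-/-Puma-/- were compared with WT Lin- BM cells in secondary recipients, over all expressed autosomal genes. The comparison used 6 of the 15 RNA sequencing libraries of the study. These were replicates 1, 2 and 3 of WT and replicates 1, 3 and 4 of the group labelled G3 mTerc-/-Puma-/-. Replicate 2 of the latter group is not drawn in the study's heatmaps and was left out, and its values are given apart. Of 18983 genes tested, 18219 lay on autosomes and are reported here.

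WT donors carried both telomerase and PUMA. Donors of the other group are labelled as lacking the telomerase RNA gene Terc (mTerc-/-), bred without it to the third generation (G3), and as lacking Puma, which is listed as Bbc3. Donors were CD45.2 mice of the C57BL/6 J strain. Their stem and progenitor cells were transplanted in series into lethally irradiated CD45.1 hosts that had both genes, and Lin- cells were enriched magnetically from femoral BM of the second hosts. No sort for donor cells is described for the RNA, so that host cells may be among those sequenced. Both deletions were germline, and G3 animals come from successive matings of mutants, so that generation and genotype cannot be told apart.

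Telomerase adds repeats to chromosome ends, and the RNA made from Terc is its template. Chromosome ends that become too short activate p53, a transcription factor that switches on cell cycle inhibitors such as Cdkn1a and death genes such as Bax and Bbc3. PUMA is the BH3-only protein through which p53 starts mitochondrial apoptosis in blood progenitors.

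Each library held between 102790519 and 120048871 counts in WT and between 112046464 and 158367059 under the G3 mTerc-/-Puma-/- label. Levels are given as normalized CPM, in which counts are put on one library total. A gene passed when edgeR's test gave it an adjusted p under 0.05. The progenitor markers Kit and Cd34 were abundant in every library, at 127 to 142 and 207 to 217 CPM in WT and at 114 to 127 and 180 to 210 CPM under the G3 mTerc-/-Puma-/- label. The mature neutrophil marker Ly6g was low, at 0.343 to 0.639 CPM in WT and at 0.470 to 2.14 CPM in the other group. Other transcripts of mature lineages were abundant. Itgam, the gene of the lineage marker CD11b, measured 85.9 to 146 CPM in WT and 148 to 172 CPM in the other group. Immunoglobulin constant genes summed to 11500 to 18900 CPM in WT and 7290 to 12300 CPM in the other group. Genes of the sex chromosomes differed between libraries of the same group. Xist, transcribed from the inactive X chromosome, measured 417, 211 and 1.72 CPM in WT and 660, 0.386 and 443 CPM under the G3 mTerc-/-Puma-/- label, in the order of their replicate numbers, which is kept throughout. Ddx3y, on the Y chromosome, measured 21.2, 26.4 and 43 CPM in WT and 2.87, 45.9 and 4.25 CPM in the other group, so that WT replicates 1 and 2 held both transcripts at over 20 CPM. Nothing in the labels says whether libraries came from separate mice, so that the p-values measure the spread between these samples.

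The targeted genes were examined first. Terc had 7, 17 and 10 counts in WT and 1, 1 and 0 under the G3 mTerc-/-Puma-/- label. Per unit of library size, the summed count was 21.1-fold higher in WT (95% exact interval 5.42 to 182, covering counting error only). Bbc3 (ENSMUSG00000002083, GRCm38 chr7:16308393-16318205) measured 20.6, 9.67 and 23.5 CPM in WT and 17.0, 15.6 and 13.5 CPM under the G3 mTerc-/-Puma-/- label, and the groups overlapped. Its log2 fold change was -0.22 (adjusted p = 1, SE 0.285). Counts are summed over the gene, and reads from exons left in the Puma allele cannot be separated from the rest. Replicate 2 lay at 16.1 CPM. The libraries labelled Puma-/- lay lower, between 5.02 and 6.8 CPM, with a log2 fold change of -1.70 against WT (adjusted p = 0.0276). Bbc3 was higher under the G3 mTerc-/-Puma-/- label than in Puma-/- by 1.48 on the log2 scale (adjusted p = 0.0345). The Bbc3 level thus lacked the fall seen in Puma-/-, and gene-level counts cannot tell whether the Puma part of the label holds. The group is named by its label throughout.

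Few autosomal genes passed the test. Of 18219 genes, 9 passed (0.0494%), with 8 higher (0.0439%) and 1 lower (0.00549%) under the G3 mTerc-/-Puma-/- label. At p under 0.05 without adjustment, 680 genes were higher (3.73%) and 307 lower (1.69%). Counts of list members at that p, given below, are to be read beside these shares. The groups did not overlap for 985 genes on the higher side (5.41%) and 566 on the lower side (3.11%). The median log2 fold change of all autosomal genes was 0.00052. The 9 genes fall into p53-linked transcripts (Phlda3, Zmat3 and Trp53cor1), Inka2, Hmcn2, Rbm8a near Terc, and 3 genes whose level also differed from WT in other mutant groups.

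**Figure D1:**
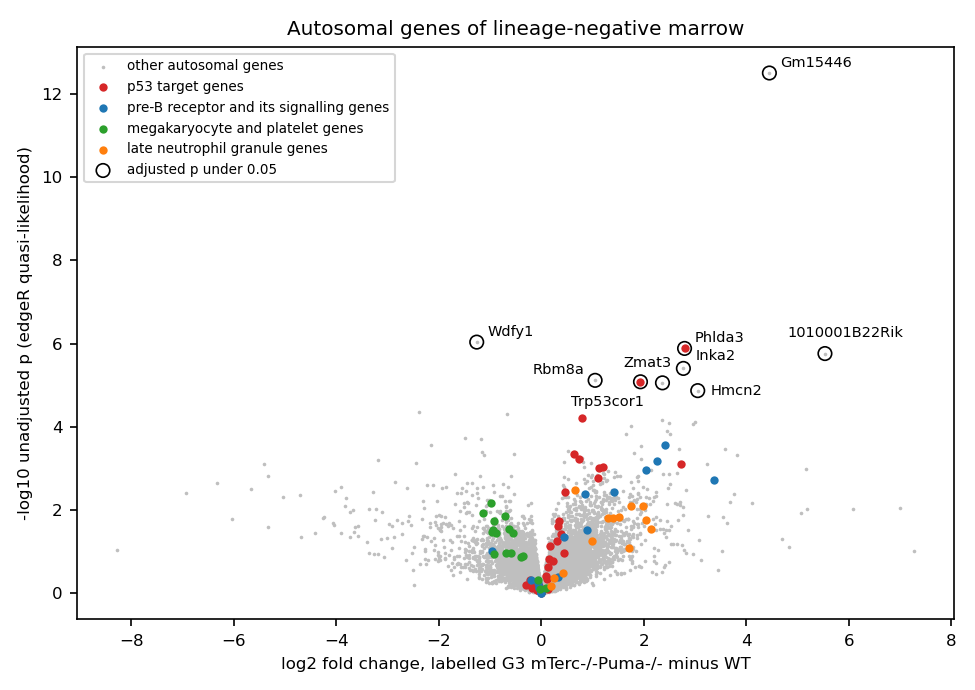
Log2 fold change (x axis) against -log10 of the unadjusted p (y axis) for 18219 autosomal genes, with 4 gene lists in colour and the 9 genes that passed circled. Wdfy1 is the circled gene to the left of 0, while p53 targets and late neutrophil granule genes lie mainly to the right and megakaryocyte genes to the left.

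Among p53-linked transcripts, Phlda3, Zmat3 and Trp53cor1 rose. Phlda3 (ENSMUSG00000041801, chr1:135766119-135769136), which encodes a p53-induced repressor of Akt signalling, measured 2.40, 2.80 and 1.49 CPM in WT and 11.9, 19.4 and 15.1 CPM under the G3 mTerc-/-Puma-/- label. It was 6.95-fold higher, with a log2 fold change of 2.80 (adjusted p = 0.00693, SE 0.342). Zmat3 (ENSMUSG00000027663, chr3:32334792-32366014) encodes an RNA-binding zinc finger protein induced by p53. It measured 4.65, 3.5 and 3.75 CPM in WT and 13.4, 19 and 13.2 CPM in the other group, with a log2 fold change of 1.94 (adjusted p = 0.0177, SE 0.279). Trp53cor1 (ENSMUSG00000085912, chr17:29057430-29079179), the long noncoding RNA lincRNA-p21, lies 11797 bases from Cdkn1a. It measured 0.216, 0.269 and 0.194 CPM in WT and 1.11, 1.64 and 0.765 CPM under the G3 mTerc-/-Puma-/- label, a log2 fold change of 2.37 (adjusted p = 0.0177, SE 0.343). For none of these did the groups overlap. In replicate 2, left out of the comparison, Phlda3 reached 34.4 CPM, Zmat3 42.4 CPM and Trp53cor1 2.97 CPM, above every library used.

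Inka2 and Hmcn2 rose by similar folds. Inka2 (ENSMUSG00000048458, chr3:105704599-105720842), which encodes an inhibitor of the kinase PAK4, measured 0.649, 0.630 and 0.591 CPM in WT and 3.58, 4.84 and 4.39 CPM under the G3 mTerc-/-Puma-/- label. The log2 fold change was 2.77 (adjusted p = 0.0125, SE 0.374). Hmcn2 (ENSMUSG00000055632, chr2:31314415-31460738) encodes hemicentin 2, a large extracellular matrix protein. Its level was 0.580, 0.38 and 0.688 CPM in WT and 3.72, 5.74 and 4.25 CPM in the other group, with a log2 fold change of 3.05 (adjusted p = 0.0234, SE 0.461). Every library of the mutant label lay above every WT library for both genes. Replicate 2 again lay higher, at 9.74 CPM for Inka2 and 10.1 CPM for Hmcn2.

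Several of these calls were lost when 1 library was left out, while the fold changes stayed close to those above. Without WT replicate 1, 2 or 3, the adjusted p of Inka2 was 0.0935, 0.0656 and 0.112, and that of Zmat3 was 0.0915, 0.108 and 0.155. Zmat3 also missed the threshold without replicate 3 of the group labelled G3 mTerc-/-Puma-/- (0.0768). Phlda3 missed it without WT replicate 1 (0.0554) or 3 (0.0593). Trp53cor1 missed it without WT replicate 1 (0.139), 2 (0.0656) or 3 (0.165) and without replicate 1 (0.0556) or 3 (0.0768) of the group labelled G3 mTerc-/-Puma-/-. With all 15 libraries Zmat3 had an adjusted p of 0.0529. Hmcn2 missed it without any one of the 6 libraries, with adjusted p of 0.167, 0.140 and 0.133 without WT replicates 1 to 3 and of 0.0556, 0.0858 and 0.0595 without replicates 1, 3 and 4 of the other group. Over the 6 fits, the log2 fold change was 2.57 to 2.99 for Phlda3, 1.75 to 2.05 for Zmat3, 2.05 to 2.60 for Trp53cor1, 2.68 to 2.89 for Inka2 and 2.85 to 3.25 for Hmcn2. Each of these fits has 1 sample fewer.

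Rbm8a rose in the same comparison. It encodes Y14, a core protein of the exon junction complex that marks spliced mRNA. Rbm8a (ENSMUSG00000038374, chr3:96629933-96633791) measured 103, 105 and 119 CPM in WT and 192, 237 and 247 CPM under the G3 mTerc-/-Puma-/- label, without overlap. It was 2.07-fold higher, a log2 fold change of 1.05 (adjusted p = 0.0177, SE 0.151). The gene starts 215074 bases from the end of Terc. Of 152 genes tested within 5 Mb of Terc, 7 had an unadjusted p under 0.05 (4.61%, against 5.42% of all autosomal genes), and Rbm8a was the one that passed. Within 5 Mb of Bbc3, 8 of 118 genes were under that p (6.78%), and 0 passed. Without WT replicate 1, 2 or 3 the adjusted p of Rbm8a was 0.125, 0.0985 and 0.0844, and without replicate 3 or 4 of the other group it was 0.0768 and 0.0729. Its log2 fold change was 0.98 to 1.16 over the fits that leave out 1 library.

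Gm15446, 1010001B22Rik and Wdfy1 made up the rest. Gm15446 (ENSMUSG00000090015, chr5:109923400-109943936), annotated as protein-coding, measured 0.364, 0.343 and 0.441 CPM in WT and 7.62, 9.54 and 8.05 CPM under the G3 mTerc-/-Puma-/- label. It rose 21.9-fold, with a log2 fold change of 4.45 (adjusted p = 5.92e-09, SE 0.163), and passed without each of the 6 libraries. 1010001B22Rik (ENSMUSG00000097863, chr5:109995511-109996398) is a long intergenic noncoding RNA 51575 bases away. It had 0, 1 and 0 counts in WT and 24, 22 and 30 counts under the G3 mTerc-/-Puma-/- label (adjusted p = 0.00693). The ratio of the summed counts per unit of library size was 61.1 (95% exact interval 10.6 to 2450, counting error only). It missed the threshold without WT replicate 1 (0.0554) or 3 (0.0773).

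Wdfy1 was the single autosomal gene that fell. It encodes an endosomal protein with WD repeats and a FYVE domain. Wdfy1 (ENSMUSG00000073643, chr1:79702262-79776143) measured 52.5, 33.6 and 50.1 CPM in WT and 18.8, 19.2 and 19 CPM under the G3 mTerc-/-Puma-/- label. The log2 fold change was -1.26 (adjusted p = 0.00693, SE 0.149). The SD was 0.165 CPM over the 3 libraries of the mutant label and 10.3 CPM over WT. Its adjusted p was 0.0506 without WT replicate 3 and 0.0529 with all 15 libraries, at log2 fold changes of -1.18 and -1.07.

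The 9 genes differed in their level in the other genotypes. These comparisons share the WT libraries, so that their values are set side by side only. Gm15446, 1010001B22Rik and Wdfy1 also passed in Puma-/- against WT (log2 fold change 4.32, 5.96 and -1.13) and in G3 mTerc-/-Puma+/+ against WT (4.57, 5.5 and -1.13). Rbm8a passed in G3 mTerc-/-Puma+/+ (1.13, adjusted p = 0.00826) and had a log2 fold change of -0.087 in Puma-/- (adjusted p = 0.861). Phlda3, Inka2, Zmat3, Trp53cor1 and Hmcn2 passed in neither, with log2 fold changes in G3 mTerc-/-Puma+/+ of 1.87, 1.85, 1.1, 1.29 and 1.72 and adjusted p of 0.106, 0.171, 0.461, 0.588 and 0.550. In all, 7 autosomal genes passed in G3 mTerc-/-Puma+/+ (0.0384%) and 9 in Puma-/- (0.0494%).

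**Figure D2:**
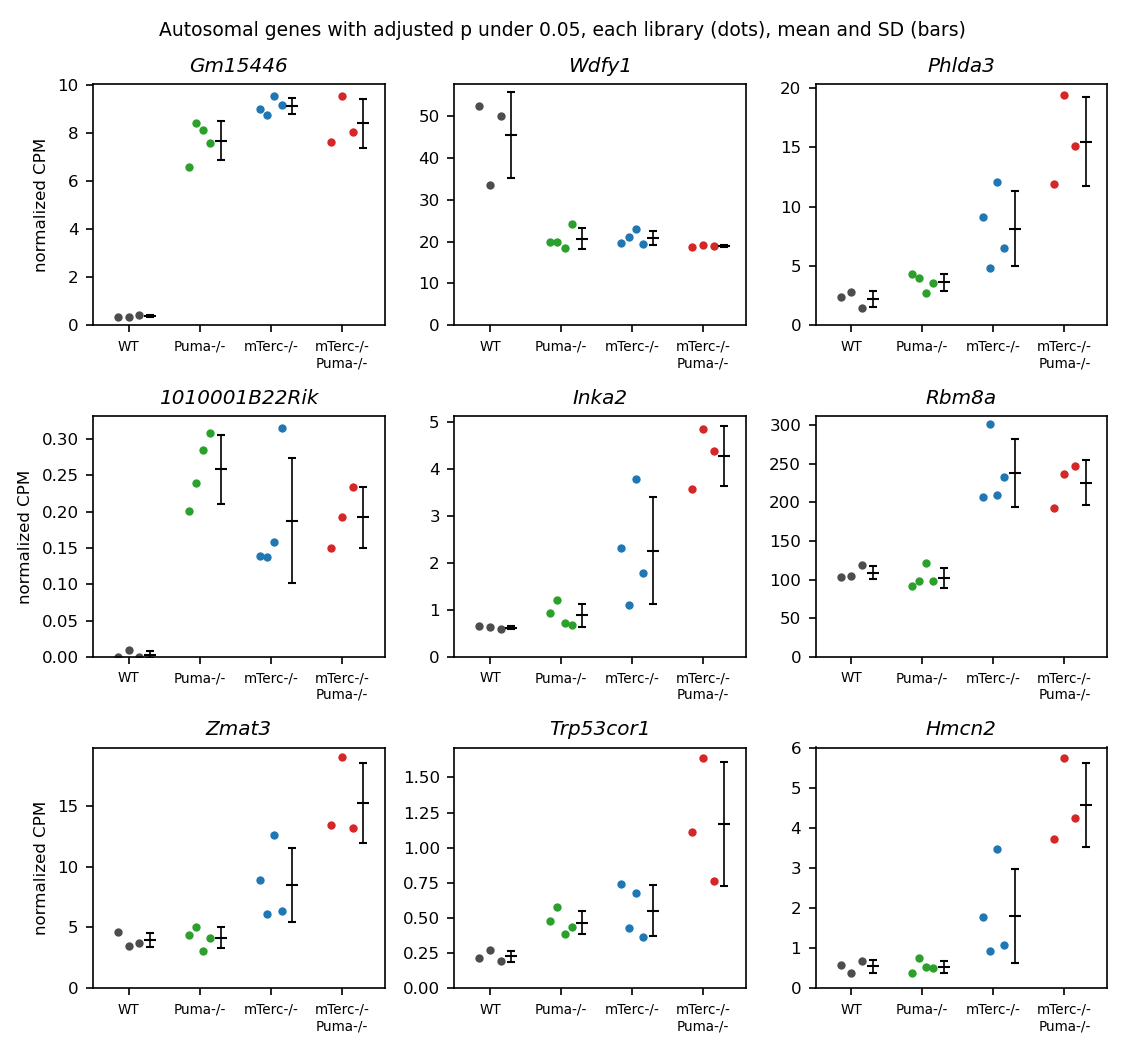
Normalized CPM (y axis, linear) of the 9 autosomal genes that passed, in 14 libraries of 4 genotypes (x axis, with G3 left out of the names); dots are libraries and bars the mean and SD (n = 3, 4, 4 and 3). Gm15446, 1010001B22Rik and Wdfy1 separate WT from all other groups, Rbm8a separates both mTerc-/- groups, and Phlda3, Inka2, Zmat3, Trp53cor1 and Hmcn2 have their highest means under the G3 mTerc-/-Puma-/- label.

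Direct tests against the single mutants were also made for these 9 genes. Against G3 mTerc-/-Puma+/+, 0 of the 9 passed and 5 had an unadjusted p under 0.05, with log2 fold changes of 0.93 for Phlda3 (adjusted p = 0.452, SE 0.295), 0.92 for Inka2 (adjusted p = 0.528, SE 0.321) and 1.33 for Hmcn2 (adjusted p = 0.376, SE 0.392). Against Puma-/-, Phlda3, Inka2, Zmat3, Hmcn2 and Rbm8a were higher and passed, with log2 fold changes of 2.09, 2.27, 1.87, 3.08 and 1.14 and adjusted p of 0.00686, 0.00725, 0.00594, 0.00594 and 0.00297. Trp53cor1 did not (1.32, adjusted p = 0.0899).

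The wider p53 target list held 32 genes, all tested. Of these, Phlda3 and Zmat3 passed. At an unadjusted p under 0.05, 13 were higher and 0 lower, beside 3.73% and 1.69% of all autosomal genes. The groups did not overlap for 16 on the higher side and for 0 on the lower side, beside 5.41% and 3.11% of all autosomal genes. The median log2 fold change was 0.20, beside 0.00052 for all autosomal genes, and 23 of 32 members were above 0. Each library of the mutant label had a higher median level of the list than each WT library, at 0.394, 0.265 and 0.222 against 0.0538, -0.00468 and 0.00879 (log2 CPM relative to the WT mean). With replicate 2 included the median log2 fold change was 0.38. DESeq2, in place of edgeR, called 85 autosomal genes in all. Of these, 9 were members, namely Phlda3, Zmat3, Ccng1, Zfp365, Tnfrsf10b, Pvt1, Cdkn1a, Psrc1 and Epha2. The study drew 7 of the members in these samples, and they are no independent evidence of the list's direction.

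**Figure D3:**
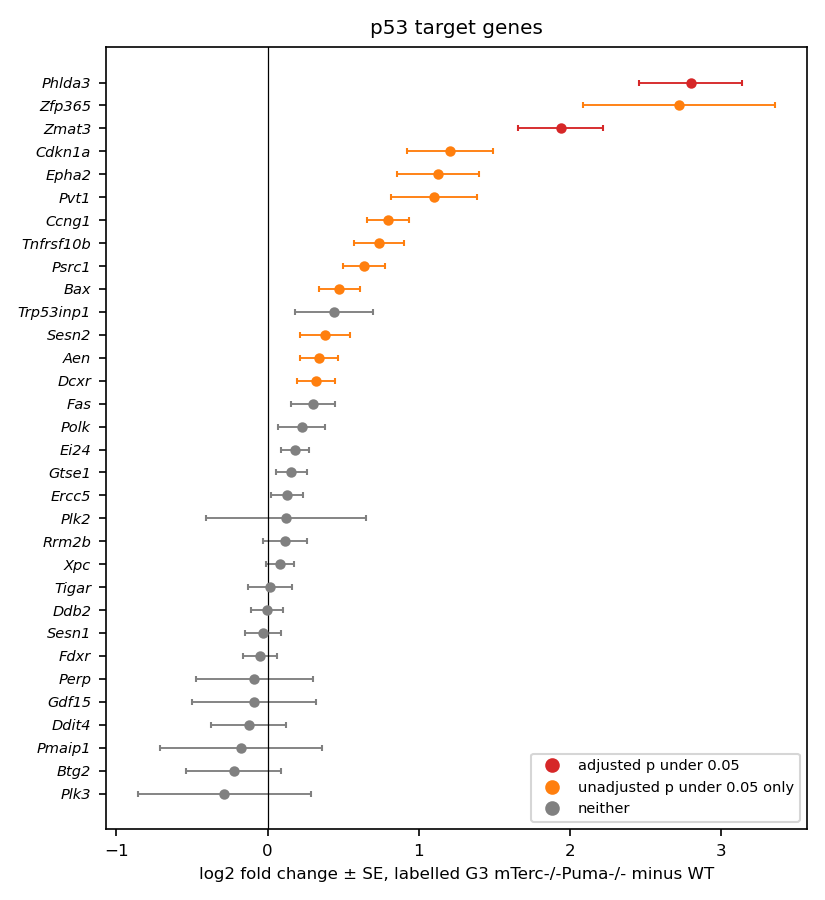
Log2 fold change with its SE (x axis) of the 32 p53 target genes (y axis), in order of size. Phlda3, Zfp365 and Zmat3 lie farthest to the right, and the 9 members below 0 have error bars that reach or cross 0.

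Cell cycle and death targets of p53 did not pass. Cdkn1a (chr17:29090976-29100727), the gene of the cyclin-dependent kinase inhibitor p21, measured 41.8, 22 and 56.3 CPM in WT and 110, 87.8 and 79.2 CPM under the G3 mTerc-/-Puma-/- label. The groups did not overlap, and the log2 fold change was 1.21 (adjusted p = 0.325, SE 0.286). Ccng1, which encodes cyclin G1, came nearest to passing. It measured 64.9, 58.9 and 52.9 CPM in WT and 90.1, 125 and 91.2 CPM in the other group, with a log2 fold change of 0.79 (adjusted p = 0.0777, SE 0.139). Bax, the pore-forming protein that PUMA engages, measured 78.0, 82.6 and 78.1 CPM in WT and 91.4, 119 and 121 CPM under the G3 mTerc-/-Puma-/- label, also without overlap. Its log2 fold change was 0.47 (adjusted p = 0.504, SE 0.135).

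Further members kept a similar pattern at lower levels. Zfp365, a gene linked to genome stability, measured 0.236, 0.0834 and 0.150 CPM in WT and 0.627, 1.49 and 0.991 CPM in the other group (log2 fold change 2.72, adjusted p = 0.290, SE 0.634). Psrc1, a spindle gene, measured 24.4, 24.6 and 27.1 CPM in WT against 36.7, 44.4 and 37.2 CPM (log2 fold change 0.64, adjusted p = 0.242). Tnfrsf10b, a death receptor, measured 2.60, 2.62 and 2.27 CPM against 3.77, 3.91 and 4.81 CPM (0.74, adjusted p = 0.276). None of these overlapped between groups. Epha2 and Pvt1 had log2 fold changes of 1.13 and 1.1 and adjusted p of 0.343 and 0.400.

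Other well-known targets lay near 0. Ei24 had a log2 fold change of 0.18 (adjusted p = 0.954, SE 0.0924), and Mdm2, which encodes the ubiquitin ligase that restrains p53, of 0.11 (adjusted p = 1, SE 0.0794). Pmaip1, the gene of the BH3-only protein NOXA, had -0.17 with an SE of 0.537. Trp53 itself measured 205, 211 and 221 CPM in WT and 213, 189 and 230 CPM under the G3 mTerc-/-Puma-/- label, a log2 fold change of -0.011 (adjusted p = 1, SE 0.0787). Over the 8 genes of p53 and its feedback, the median was -0.026 and 0 had an unadjusted p under 0.05. The same count was 0 of 7 for BH3-only genes (median -0.037) and 0 of 18 for telomerase and shelterin genes (median -0.0091). Over 21 DNA damage and repair genes it was also 0 (median -0.013). Among 10 genes of BAX, BAK and the pro-survival BCL2 proteins it was 1, Bax itself.

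Promoter sequences were examined for p53 targets and for the genes that passed. The protein p53 binds DNA at a degenerate half-site of 10 bases that is usually repeated. RefSeq promoters on GRCm38.p6, from 250 bases before to 50 after the start, were at hand for 11750 tested autosomal genes, and the 250 bases before the start were searched on both strands, at every start listed for a gene. The half-site was present in 841 of them (7.16%). It was found for 7 of the 23 p53 targets with a promoter (30.4%), namely Aen, Bax, Ccng1, Cdkn1a, Ei24, Polk and Sesn1. Of the genes that passed, 4 had a promoter there (Gm15446, Phlda3, Inka2 and Hmcn2), and Inka2 held a half-site. The EBF1 motif, that of a B lineage factor, occurred in 143 of the 11750 (1.22%) and in 0 of those 4. The stretches around the half-sites of Inka2 and of 3 p53 targets are shown, with the half-site in capitals and 25 bases on each side, read 5′ to 3′ on the strand of the gene. A match is a description of letters and not a measured binding site.
Inka2, chr3:105705352-105705411, plus strand: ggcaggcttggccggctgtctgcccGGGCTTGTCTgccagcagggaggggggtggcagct
Ccng1, chr11:40755437-40755496, minus strand: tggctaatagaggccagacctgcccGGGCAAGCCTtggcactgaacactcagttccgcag
Bax, chr7:45467065-45467124, minus strand: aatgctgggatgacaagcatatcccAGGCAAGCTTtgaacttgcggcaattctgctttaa
Cdkn1a, chr17:29090881-29090962, plus strand: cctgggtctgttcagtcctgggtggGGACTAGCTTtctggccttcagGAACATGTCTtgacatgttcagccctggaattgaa

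RefSeq lists 2 starts for Inka2, and its half-site begins 81 bases before the downstream one, which lies 859 bases inside the gene as given above. That of Ccng1 begins 185 bases before its start. In the Bax promoter it begins 201 bases before the start. Cdkn1a has 2 in the window, the first 73 bases before the start. Of these 4 genes, Inka2 passed the test.

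Beyond p53, the largest fold changes on the higher side included lymphoid genes. By a rule on size, p and abundance, 134 protein-coding genes qualified on the higher side and 22 on the lower side, and the 10 largest of each are named. Besides Gm15446, Hmcn2, Phlda3 and Inka2, the 10 on the higher side were Rag1, Tnfsf4, Cd4, Igfbp3, Cplx2 and Igll1, of which none passed the test. Rag1, a subunit of the recombinase that joins antigen receptor segments, measured 0.570, 0.593 and 0.194 CPM in WT and 2.52, 7.76 and 2.47 CPM under the G3 mTerc-/-Puma-/- label (log2 fold change 3.23, adjusted p = 0.289, SE 0.75). Tnfsf4, the gene of OX40 ligand, measured 0.364, 0.343 and 0.115 CPM against 1.45, 3.13 and 1.84 CPM (2.97, adjusted p = 0.0882). Cd4, the coreceptor of helper T cells, measured 2.21, 2.06 and 2.42 CPM against 28.6, 14.6 and 4.21 CPM (2.82, adjusted p = 0.497). Igfbp3 and Cplx2 had log2 fold changes of 2.51 and 2.46 and adjusted p of 0.126 and 0.117.

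Early B lymphoid genes were higher in the 3 libraries compared, without passing, and some of them were low in replicate 2. In the early B lymphoid list 15 of 15 genes had a log2 fold change above 0, with a median of 0.48. Beside 3.73% of all autosomal genes, 6 members had an unadjusted p under 0.05 on the higher side. DESeq2 called Dntt and Rag1 among them. The median was 0.32 without WT replicate 3. Dntt, which adds bases at antigen receptor joints, measured 18.9, 46.2 and 25.9 CPM in WT and 103, 148 and 98.9 CPM in the other group. Its groups did not overlap, and the log2 fold change was 1.94 (adjusted p = 0.276, SE 0.436). Ebf1 and Pax5, transcription factors that set B cell identity, measured 1.5 to 2.08 and 0.609 to 1.60 CPM in WT and 2.72 to 8.18 and 1.91 to 8.25 CPM under the G3 mTerc-/-Puma-/- label (log2 fold changes 1.44 and 2.20, adjusted p = 0.511 for both). Without replicate 3 of the mutant label these were 0.79 and 1.43. Replicate 2 measured 0.327 CPM of Dntt, 0 of Rag1 (where a count of 0 allows 0.0258 CPM) and 0.224 of Rag2, below every WT library, but 7.18 CPM of Ebf1. With it included, the log2 fold change of Dntt was 1.53 with edgeR and -0.033 with limma-voom. In bulk RNA, more cells of a type and more RNA per cell cannot be told apart.

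Part of the pre-B receptor list was higher as well. Of 16 members, 9 were above 0 and 7 below, with a median log2 fold change of 0.39. Beside 3.73% and 1.69% of all autosomal genes, 8 members were higher and 0 lower at an unadjusted p under 0.05. DESeq2 called Igll1, Vpreb1, Vpreb2 and Vpreb3 among them. Igll1, the surrogate light chain gene, measured 2.02, 1.29 and 1.44 CPM in WT and 4.10, 16.2 and 4.89 CPM under the G3 mTerc-/-Puma-/- label (2.41, adjusted p = 0.190, SE 0.494). Vpreb1, its partner in the surrogate light chain, measured 2.07, 1.34 and 1.26 CPM against 3.06, 13.1 and 3.18 CPM (2.05, adjusted p = 0.366, SE 0.497). Replicate 3 was the highest library for both, and without it the log2 fold changes of Igll1 and Vpreb1 were 1.51 and 1. Replicate 2 lay below every WT library for both, at 0.981 and 0.801 CPM. Blnk, the adaptor of the receptor, measured 9.52, 7.48 and 7.70 CPM against 12.7, 18.7 and 13.5 CPM (0.86, adjusted p = 0.510). Ighm, the heavy chain itself, ran the other way, from 1970 to 7710 CPM in WT and from 1220 to 4740 CPM in the other group, with overlap (-0.96, adjusted p = 1, SE 0.538).

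Immunoglobulin variable segments were mostly lower, and this group was looked at after its values were seen. Of 191 segments tested, 145 had a log2 fold change below 0, with a median of -1.07. At an unadjusted p under 0.05, 42 were lower and 6 higher, beside 1.69% and 3.73% of all autosomal genes, and 0 passed. Their summed level was 3840, 3460 and 3760 CPM in WT and 2450, 3010 and 1890 CPM under the G3 mTerc-/-Puma-/- label, without overlap. The 13 constant genes had a median of -1.06. Segments of one family share sequence, and how reads that match several of them were counted is not stated. Plasma cell genes, which mark the cells richest in immunoglobulin RNA, summed to 1200 to 1730 CPM in WT and 860 to 1520 CPM in the other group, with 6 of 8 members below 0, and their part in the segments' level was not tested.

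**Figure D4:**
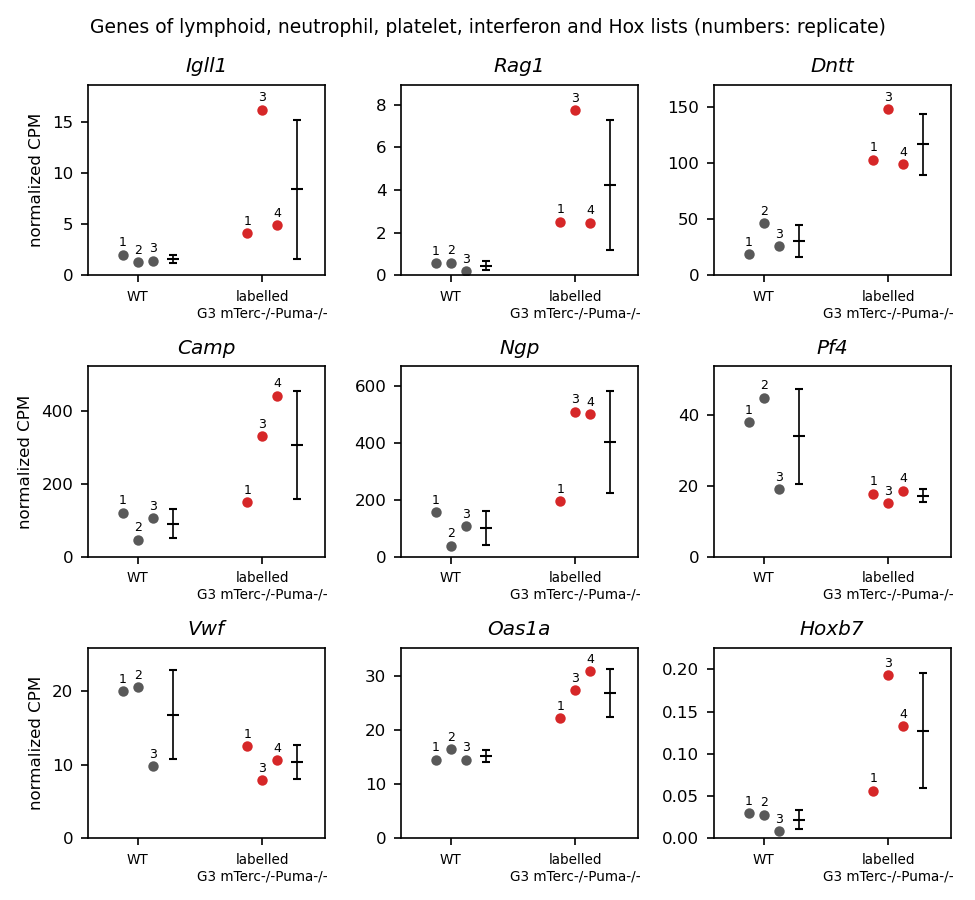
Normalized CPM (y axis, linear from 0) of 9 genes of the lymphoid, neutrophil, platelet, interferon and Hox lists in 3 WT libraries and 3 libraries labelled G3 mTerc-/-Puma-/-; numbers give the replicate and bars the mean and SD. Replicate 3 holds the highest level of Igll1, Rag1, Dntt and Hoxb7, and Pf4 and Vwf are low in WT replicate 3 as well as in the libraries of the mutant label.

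Late neutrophil granule genes were higher by folds that differed between libraries. All 13 had a log2 fold change above 0 (median 1.39), 8 had an unadjusted p under 0.05, 7 did not overlap between groups (5.41% of all autosomal genes on the higher side), and 0 passed. Camp, which encodes the antimicrobial peptide cathelicidin, measured 121, 46.9 and 106 CPM in WT and 149, 331 and 442 CPM under the G3 mTerc-/-Puma-/- label (log2 fold change 1.75, adjusted p = 0.579, SE 0.565). Ngp, a granule protein of the same stage, measured 158, 38.9 and 108 CPM against 195, 511 and 503 CPM (1.99, adjusted p = 0.579, SE 0.640). Ltf, which encodes lactoferrin, measured 46.3, 13.6 and 30.4 CPM against 52.6, 176 and 143 CPM (2.04, adjusted p = 0.735). In each case WT replicate 2 was the lowest library, and replicate 1 of the mutant label lay just above the highest WT library. The number of members at an unadjusted p under 0.05 was 3 without WT replicate 2 and 4 without replicate 3 of the mutant label. DESeq2 and limma-voom called 0 of them. Primary granule genes, which are made earlier in the myeloid lineage, had a median of 0.058 and 0 members at that level. Ly6g, the surface marker of mature neutrophils, measured 0.343 to 0.639 CPM in WT and 0.470 to 2.14 CPM in the other group, with overlap. Itgam, the gene of the myeloid surface protein CD11b, measured 85.9 to 146 CPM in WT and 148 to 172 CPM in the other group, and its part in the granule genes was not tested.

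Megakaryocyte and platelet genes were lower, and WT replicate 3 resembled the mutant label. Of 17 members, 16 had a log2 fold change below 0 (median -0.69). At an unadjusted p under 0.05, 9 were lower, beside 1.69% of all autosomal genes, and 0 passed. Pf4, a platelet chemokine gene, measured 37.9, 44.8 and 19 CPM in WT and 17.8, 15.1 and 18.6 CPM under the G3 mTerc-/-Puma-/- label, without overlap (-0.98, adjusted p = 0.553, SE 0.309). Vwf, the gene of von Willebrand factor, measured 20.0, 20.6 and 9.85 CPM against 12.5, 7.93 and 10.6 CPM (-0.70, adjusted p = 0.698, SE 0.249), with overlap between the groups. The median level of the list was 0.387 and 0.238 in WT replicates 1 and 2 and -0.694 in WT replicate 3, beside -0.498, -0.600 and -0.659 in the other group (log2 CPM relative to the WT mean). Without WT replicate 1 or 2, 1 and 2 members had an unadjusted p under 0.05, and without WT replicate 3, 13 did. Without replicate 3 or 4 of the mutant label, 3 and 5 did. DESeq2 and limma-voom called 0 members.

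Erythroid and globin genes varied between libraries of the same group. The 4 globin genes had a median log2 fold change of 1.32, but their summed level overlapped, with 21.4 to 62.2 CPM in WT and 29.8 to 193 CPM under the G3 mTerc-/-Puma-/- label. The 18 erythroid membrane and maturation genes were all above 0 (median 0.74), and 1, Epb42, had an unadjusted p under 0.05. Without replicate 1 of the mutant label, the medians of the globin and erythroid lists were 0.65 and 0.33, and with replicate 2 included they were 3.29 and 2.30. Heme synthesis genes had a median of 0.094 and 0 such members.

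Interferon-stimulated genes were higher with little spread between replicates. All 24 type I interferon-stimulated genes had a log2 fold change above 0, with a median of 0.59, and 12 had an unadjusted p under 0.05. The groups did not overlap for 18 of them on the higher side (5.41% of all autosomal genes), and 0 passed, while DESeq2 called Oas1a and Oasl1. Oas1a, an antiviral oligoadenylate synthetase gene, measured 14.5, 16.4 and 14.5 CPM in WT and 22.2, 27.3 and 30.9 CPM under the G3 mTerc-/-Puma-/- label (0.82, adjusted p = 0.289, SE 0.189). Isg15, a ubiquitin-like modifier gene, measured 3.27, 4.85 and 3.81 CPM against 5.64, 7.53 and 8.94 CPM (0.89, adjusted p = 0.665, SE 0.310). Ifi44 measured 1.44, 1.39 and 0.908 CPM against 2.85, 2.70 and 3.51 CPM (1.28, adjusted p = 0.511, SE 0.383). Their summed level was 403 to 414 CPM in WT and 523 to 554 CPM in the other group. The list's median in Puma-/- against WT was 0.31, and in G3 mTerc-/-Puma+/+ against WT it was -0.17. With replicate 2 of the mutant label included, the list's median log2 fold change against WT was 0.56. That library measured 23.2 CPM of Oas1a and 2.55 CPM of Ifi44, above every WT library. Its 64.7 CPM of Bst2, another member, lay below every WT library.

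Interferon-gamma-induced GTPases did not separate the groups in the same way. All 14 were above 0 with a median of 0.57, but 0 had an unadjusted p under 0.05 and 0 were without overlap. The median was 0.35 without replicate 1 of the mutant label. Iigp1 had the largest log2 fold change (1.55, SE 0.806), from 2.58 to 7.35 CPM in WT and from 4.57 to 17.1 CPM under the G3 mTerc-/-Puma-/- label. MHC class I and immunoproteasome genes had a median of 0.22, and MHC class II genes one of -0.15, each with 0 such members. Plasmacytoid dendritic cells are a main source of type I interferon, and their part in the interferon-stimulated genes was not tested. Of the 11 genes of that list (median 0.52), 4 had an unadjusted p under 0.05 on the higher side, beside 3.73% of all autosomal genes. Siglech, their surface receptor gene, measured 34.5, 16.4 and 24.5 CPM in WT and 50.0, 41.1 and 47.4 CPM in the other group (0.88, adjusted p = 0.842). Replicate 2 lay at 0.129 CPM, and with it the median of the list was 0.13. Without WT replicate 2 or replicate 1 of the mutant label, 1 member had an unadjusted p under 0.05, and without WT replicate 3, 2 did.

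**Figure D5:**
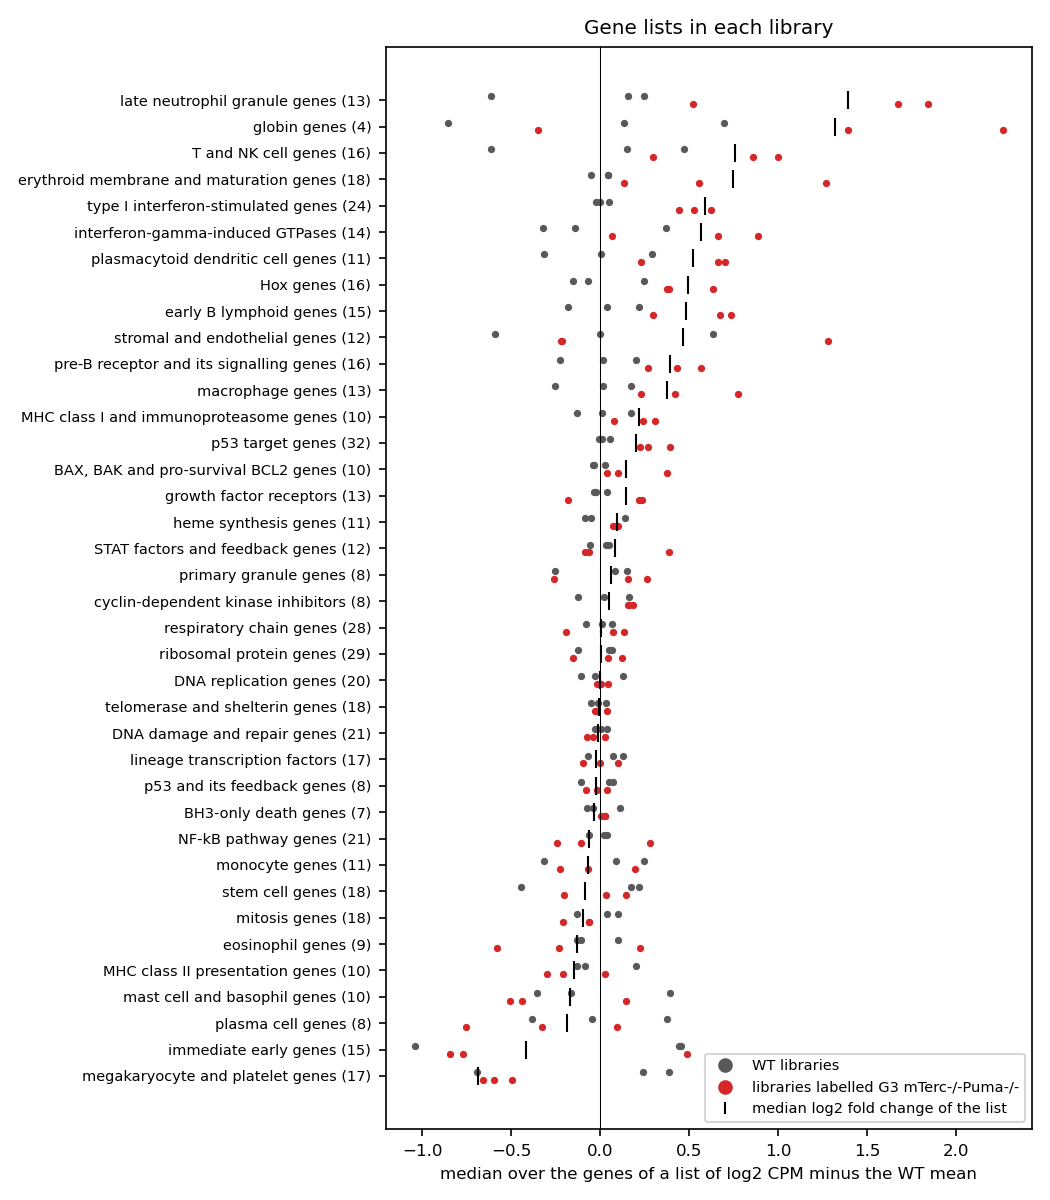
Median over the genes of each of 38 lists (y axis, number tested in brackets) of log2 CPM minus the WT mean (x axis), with 1 dot per library and a bar at the list's median log2 fold change. Interferon-stimulated and p53 target genes separate the groups with narrow spread, and globin, stromal and immediate early genes spread as widely within groups as between them.

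Hox genes, which mark early progenitors, were all above 0 (16 of 16, median 0.49). Beside 3.73% of all autosomal genes on the higher side, 5 had an unadjusted p under 0.05. That number was 1, 8 and 3 without WT replicates 1, 2 and 3, and 2 without replicate 3 of the mutant label. Hoxb7 measured 0.0295, 0.0278 and 0.00882 CPM in WT and 0.0564, 0.193 and 0.133 CPM under the G3 mTerc-/-Puma-/- label, near the limit of 0.0292 CPM that a count of 0 allows in the smallest library (2.47, adjusted p = 0.463, SE 0.682). Hoxa7 measured 8.31, 10.9 and 10.4 CPM against 12.9, 14.3 and 13.4 CPM (0.45, adjusted p = 0.735, SE 0.168). Stem cell genes had a median of -0.088, with 2 members higher and 1 lower at an unadjusted p under 0.05. Kit had a log2 fold change of -0.15 (adjusted p = 1, SE 0.110). Il1r1, the receptor gene of interleukin-1, measured 8.95, 6.81 and 6.85 CPM against 15.1, 13 and 11.2 CPM without overlap (0.80, adjusted p = 0.274, SE 0.178).

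Of 8 cyclin-dependent kinase inhibitor genes, 3 had an unadjusted p under 0.05 and were higher (Cdkn1a, Cdkn2a and Cdkn2b), and the median log2 fold change was 0.049. Cdkn1b, Cdkn2c and Cdkn2d were at -0.096, -0.29 and 0.0013. Cdkn2a, the gene of p16 and p19ARF, measured 0.256, 0.714 and 0.265 CPM in WT and 0.426, 2.09 and 0.718 CPM under the G3 mTerc-/-Puma-/- label, with overlap (1.38, adjusted p = 0.856, SE 0.599), and its log2 fold change was 0.47 without replicate 3 of the mutant label. Mitosis genes were all slightly below 0 (18 of 18, median -0.099), with Cenpe alone at an unadjusted p under 0.05 (-0.22, adjusted p = 0.888). DNA replication genes had a median of -0.0012. Ribosomal protein and respiratory chain genes lay at 0.0021 and 0.0053, and 0 of 29 and 0 of 28 had an unadjusted p under 0.05. Immediate early genes had a median of -0.42 and 0 such members, and their median level varied from -1.04 to 0.452 among WT libraries. Leaving out each library in turn, the median of the list ran from -1.10 (without replicate 1 of the mutant label) to -0.15 (without WT replicate 3).

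The largest fold changes on the lower side belonged to genes of mixed function, and Wdfy1 alone among them passed. Erbb3, which encodes a receptor of the EGF receptor family, measured 12.1, 13.6 and 18.2 CPM in WT and 2.86, 1.53 and 4.03 CPM under the G3 mTerc-/-Puma-/- label (-2.38, adjusted p = 0.0661, SE 0.405). Camk2b, a calcium-dependent kinase gene, measured 8.01, 11.2 and 13.8 CPM against 4.50, 1.74 and 4.09 CPM (-1.68, adjusted p = 0.388). Cdk5rap1, a tRNA-modifying enzyme gene, measured 28.8, 14.2 and 27.4 CPM against 7.83, 10.2 and 13.6 CPM (-1.15, adjusted p = 0.235, SE 0.248). Dmc1, Nbea, H1fx, Cyp2s1 and Pf4 had log2 fold changes between -1.42 and -0.94. Gm128 had the largest at -5.40, from 0.670 to 9.56 CPM in WT and from 0.0624 to 0.132 CPM in the other group, while replicate 2 lay at 4.17 CPM. It lies at chr3:95236920-95241598, within the window of 5 Mb around Terc.

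Markers of other cell types were examined beside these results. T and NK cell genes were above 0 for 16 of 16 members (median 0.76), and 1 had an unadjusted p under 0.05. The groups did not overlap for 3 members on the higher side, beside 5.41% of all autosomal genes. Their summed level overlapped, with 442 to 648 CPM in WT and 598 to 875 CPM under the G3 mTerc-/-Puma-/- label. Cd3e, which defines T cells, lay at 4.95 to 12.5 and 8.77 to 24.5 CPM. Macrophage genes were above 0 for 13 of 13 (median 0.37), with 1 at an unadjusted p under 0.05 and sums of 177 to 196 and 213 to 337 CPM. Their median was 0.228 without WT replicate 2 and 0.235 without replicate 3 of the mutant label. Stromal and endothelial genes had 7 of 12 members above 0 and sums of 417 to 1400 and 481 to 1400 CPM, with a median of 0.46 that was -0.38 without replicate 3 of the mutant label. Cxcl12, a chemokine gene of marrow stroma, was highest in replicate 3 of the mutant label at 906 CPM, against 199 to 277 CPM in WT and 306 and 359 CPM in replicates 1 and 4. Replicate 3 was also the highest library for Rag1, Igll1, Dntt and Hoxb7. The part of these cell types in the gene levels above was not tested. Eosinophil, mast cell and basophil, monocyte and lineage transcription factor lists had medians between -0.17 and -0.022, with members on both sides of 0. NF-kB genes, STAT factors and feedback genes, and growth factor receptors had medians of -0.066, 0.084 and 0.14.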

How the data were processed

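Gene-level counts of the 15 libraries were deposited by the authors without normalization. Per the labels and the study's methods, poly(A)-selected stranded paired-end reads were trimmed with Trimmomatic 0.38 and counted with STAR 2.5.2b on mm10. The annotation release and the strand column are not given in the sources used here, so that overlapping genes may share reads. Symbols and coordinates came from GENCODE M21 (GRCm38).

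The counts were scaled and filtered by edgeR 4.0.16 in R 4.3.3 (TMM factors 0.926 to 1.07, filterByExpr). The 14 libraries of the heatmaps were fitted by genotype, so that all groups shared 1 estimate of the spread (common biological coefficient of variation 0.251). The libraries labelled G3 mTerc-/-Puma-/- were set against WT with the quasi-likelihood test, and Benjamini-Hochberg adjustment ran over 18983 genes. Genes on X and Y, of which 3 passed, are not listed. Replicates of a group differed by a chi-square per gene of 74 to 234, so that none holds the same counts as another. This value cannot tell whether they came from separate mice. CPM are counts scaled to a common total after TMM. Values of replicate 2 were scaled in the fit of all 15 libraries. A count of 0 allows up to 3 counts.

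Named genes were the targeted genes, every autosomal gene that passed, the 10 largest folds in each direction among protein-coding genes with unadjusted p under 0.01, no overlap and a mean of at least 1 CPM, Trp53 and 7 p53 targets, and up to 4 members of each list with the smallest unadjusted p. Other list members were added for their role after their values were seen. The members, the lists and this rule were chosen with earlier results of these data known. The immunoglobulin segments, the windows of 5 Mb and the p53 half-site search were chosen after seeing the data. A few named genes are not reported here. Lists are described by counts and medians without a set test. DESeq2 1.42.0 and limma 3.58.1 served as alternatives, beside other scalings, filters, a replicate block, an Xist covariate, glmTreat with a minimum log2 fold change of 0.5, and leaving out each library.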

Additional observations from a re-analysis of the deposited data

Results flagged for a closer look

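Over the 4 libraries labelled G3 mTerc-/-Puma-/-, 11 of 78 named genes had 1 library far from the rest by Dixon's test. For genes chosen without regard to these values, chance gives about 3.9. Genes were named largely by the values of replicates 1, 3 and 4, without replicate 2, so that 3.9 is no fair yardstick here. Replicate 2, left out of the comparison, was that library for 10 of them. It was high for Hbb-bs (482 CPM, others 11.0 to 79.0), Hba-a1 (416 CPM, others 11.6 to 67.7), Hba-a2 (179 CPM, others 3.24 to 23.0), Hbb-bt (172 CPM, others 4.11 to 23.8) and Epb42 (30.6 CPM, others 0.918 to 4.44), all expressed in maturing red cells. It was also high for Psrc1 (108 CPM, others 36.9 to 44.6), Wdfy1 (29.5 CPM, others 18.9 to 19.2), Gm128 (4.17 CPM, others 0.0628 to 0.132) and Il5ra (0.671 CPM, others 0.173 to 0.247). It was low for Cox6a2, at 0.559 CPM with the others at 13.6 to 15.2. Replicate 3 was apart for Vpreb3, a pre-B receptor gene (7.84 CPM, others 1.64 to 2.55).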

How the results depend on the processing

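Of the 9 genes that passed, 7 remained with all 15 libraries (0 lower), 9 with library size alone or DESeq2 size factors, 9 with adjustment over autosomal genes, and 7 with at least 1 CPM in 3 libraries or with glmTreat. Without a filter 12 passed (2 lower). With the 2 groups compared alone 5 passed, of which 5 were higher and 0 lower. DESeq2 called 85 genes (64 higher, 21 lower) and limma-voom 10 (2 lower), each with all 9 among them. Leaving out 1 library gave 1 to 8 genes, with 1 to 6 higher and 0 to 3 lower. With all 15 libraries and limma-voom, chosen after seeing the data, 8 passed (2 lower). Library size alone moved the median log2 fold change of all genes to 0.051, and the Xist covariate gave 10 calls with all 9 among them. The groups share replicate numbers 1 and 3. The replicate block gave 10 genes over 14 libraries (3 lower, 7 shared) and 30 over the 2 groups (14 higher, 16 lower, 2 shared). Deviations of same-numbered libraries correlated at 0.156 and -0.0873. These values cannot tell whether same-numbered samples were handled together, and the labels do not say.

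Some values changed sign. Il5ra went from -0.59 to 0.025 with all 15 libraries. Trp53 was at 0.040 with library size alone, and across single left-out libraries ranged from -0.077 to 0.062, with 0.020 without WT replicate 3 and 0.062 without replicate 3 of the mutant label. Bbc3 ranged from -0.52 to 0.022. With all 15 libraries and limma-voom, Dntt went from 1.94 to -0.033, Cox6a2 from 0.97 to -0.11 and Siglech from 0.88 to -1.04. The plasmacytoid dendritic cell list went from 0.52 to -0.48. With all 15 libraries and edgeR, these values were 1.53, 0.58, 0.46 and 0.13, and kept their sign. Replicate 2 measured 0.327 CPM of Dntt. The cause of these changes was not tested. Of 684 list medians under alternatives, 646 moved by less than the spread of library medians.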
